A study of Rattus norvegicus with 18 samples.

Results

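The BCL2 family decides whether a cell keeps or loses the integrity of its mitochondria. Survival proteins such as BCL2, BCL-XL and MCL1 hold the pore-forming effectors BAX and BAK in check. BH3-only proteins such as BIM, BAD, BID, NOXA and PUMA sense stress or the loss of growth signals and bind the survival proteins, some of them the effectors as well. In T cells, BIM is best known for removing activated cells when an immune response ends, and signals from common gamma-chain cytokines such as interleukin-2 keep BCL2 levels up.

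The expression of 10 genes of this family was followed in autoreactive rat CD4+ T cells after deletion of *Ets1* or *Grk2*. The genes were taken by name, with earlier results of these data known. They were the survival genes *Bcl2*, *Bcl2l1* (BCL-XL) and *Mcl1*, the effector genes *Bax* and *Bak1*, and the BH3-only genes *Bcl2l11* (BIM), *Bad*, *Bid*, *Pmaip1* (NOXA) and *Bbc3* (PUMA). Of the 32882 genes in each table, 8 were members of this set. *Mcl1* and *Bbc3* were not analysed here.

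The cells were T-MBP cells of Lewis rats, which recognise myelin basic protein and cause experimental autoimmune encephalomyelitis, a model of multiple sclerosis, when they are transferred. They had been expanded in T cell growth factor medium, restimulated with myelin basic protein and irradiated thymocytes and transferred to Lewis rats, and they were recovered on day 3. Control cells had been electroporated with Cas9 protein and a non-targeting (NT) guide, expressed a blue fluorescent protein and are labelled wild type. KO cells had received a guide against *Ets1* or *Grk2* and expressed a green fluorescent protein, so the colour and the edited gene cannot be told apart. Both had been transduced with a retrovirus for the colour, were co-transferred into hosts that kept their own T cells, and were sorted by colour after recovery. 3 libraries were made for each of 6 groups. In the *Ets1* experiment KO cells and their controls were taken both from the parenchyma of the spinal cord and from the spleen, and in the *Grk2* experiment from the spleen. The labels do not say whether the 3 replicates came from separate animals. The paper calls all its replicates biological and corrected for batch per animal when applicable, but does not give the animals behind each library. Here p values therefore refer to these libraries and not to animals. The spread behind them was taken mostly from a trend over all genes, and less from each gene's own libraries.

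The guides are shown because they define the groups. Capitals mark the 10 bases at the 3′ end, next to which Cas9 requires its recognition motif in the target.
NT: gctgcatgggGCGCGAATCA
Ets1: tgctgctcggAGTTAACAGT
Grk2: gatttgtcagAACCTCCGAG

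The values are normalized counts, that is, 3′ mRNA-seq reads per gene divided by a size factor of the library. The libraries held between 898092 and 2248258 reads on genes, so a gene at 10 normalized counts rests on about as many reads. Spleen *Ets1*-KO libraries were deeper than their controls (medians 2108035 and 1201144 reads), and replicate 3 of the spleen *Ets1*-KO cells stood apart from its group mates. The 8 T cell marker genes summed to between 2597 and 3378 CPM (reads per 1000000 reads on genes) in every library, and the 8 B cell markers to at most 9.89. *Ets1* mRNA was not called in *Ets1*-KO against control cells in the parenchyma (log2 fold change 0.09, SE 0.07, adjusted p = 0.560) or in the spleen (-0.06, SE 0.11, adjusted p = 0.854), as read at the 3′ end, which does not show the edited site. The paper states that the single-KO lines of its follow-up experiments had their KO efficiency checked beforehand. Its supplement also holds a western blot of ETS1 protein in NT and ETS1-KO cells, which was not read here. *Grk2* mRNA was lower in *Grk2*-KO cells (-1.22, SE 0.13, adjusted p = 1.76e-12), with 53.3, 64.2 and 87.3 normalized counts against 166, 166 and 142. This call was lost when the trend over genes was ignored (limma, adjusted p = 0.496). Leaving out 1 replicate number raised the adjusted p to as much as 0.0493.

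*Bcl2l11* was the single member called in any comparison, and it was called in the parenchyma, where *Ets1*-KO cells held about 2.07 times the control level. Its normalized counts were 161, 137 and 142 in the 3 control libraries. In the 3 *Ets1*-KO libraries they were 277, 305 and 331. All KO libraries lay above all control libraries, as for 7.87% of all genes tested there, and each KO library lay above its same-numbered control. The means were 146 ± 12.5 and 304 ± 27.0 (SD, n = 3 each), from 462 and 868 reads. The log2 fold change was 1.05 with an SE of 0.11 and a 95% confidence interval of 0.83 to 1.27, and the adjusted p was 2.48e-18 (limma with Benjamini-Hochberg adjustment over 7002 genes). In that comparison 5.23% of all tested genes were called, 2.27% with higher and 2.96% with lower levels in KO cells, and 1 of the 7 tested members was called. KO cells were higher for 43.4% of the called genes, and for 53.6% with TMM scaling. Over 14 alternative fits the log2 fold change lay between 0.96 and 1.18. It remained called in 13 of them, with an adjusted p of at most 1.58e-07, but not with a variance estimate that ignores the trend with expression level (adjusted p = 0.170). An exact two-sided permutation test of 3 against 3 libraries gave p = 0.1, the smallest it allows.

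**Figure D1:**
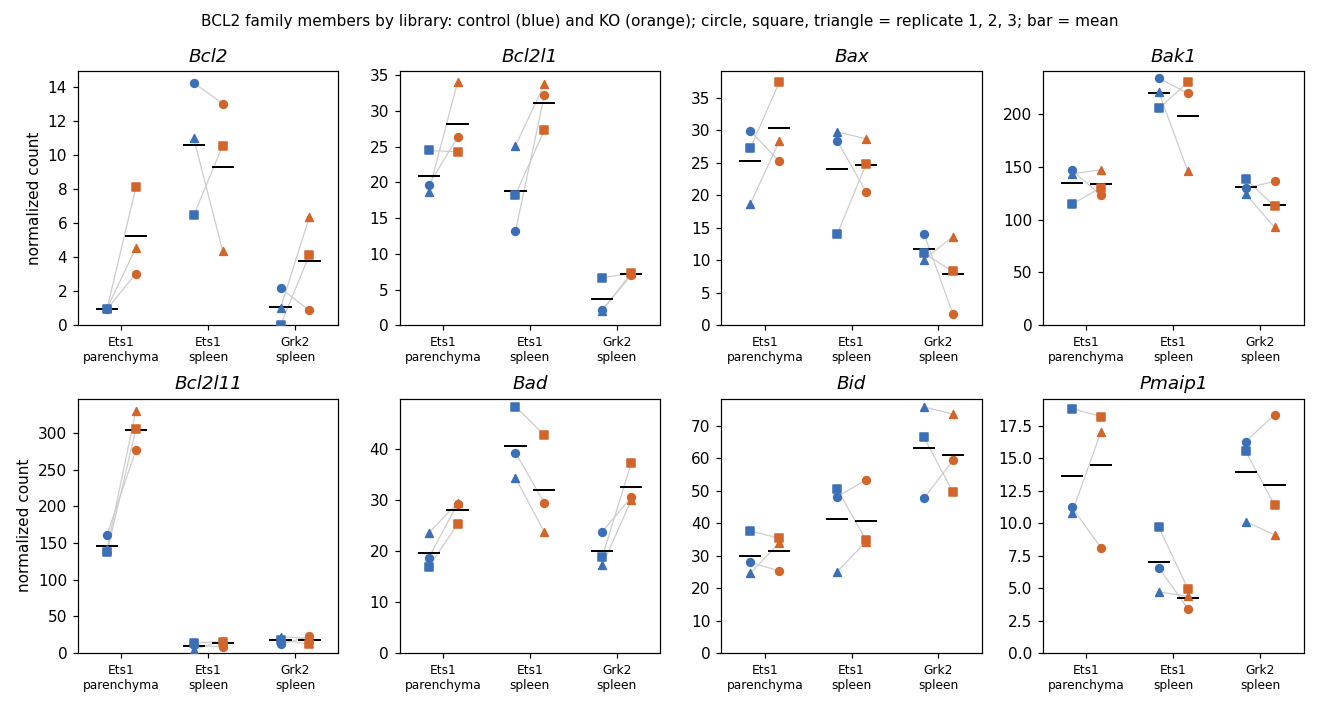
Normalized counts (vertical axis, linear, from 0) of the 8 members in all 18 libraries, with control cells in blue and KO cells in orange, same-numbered libraries joined by a grey line, and the mean of 3 libraries as a black bar. In the *Bcl2l11* panel the parenchyma KO libraries at 277 to 331 stand above the parenchyma controls at 137 to 161, and all spleen libraries lie far below both.

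In the spleen, *Bcl2l11* was read near the lower limit of what could be tested. Its normalized counts were 10.9, 14.0 and 4.70 in control cells and 8.22, 15.5 and 16.9 in *Ets1*-KO cells. The groups overlapped, and the highest ratio came from replicate 3, whose control was the lowest of the 3. The log2 fold change was 0.47 with an SE of 0.44 (adjusted p = 0.691), and without replicate 3 it was -0.12. In the *Grk2* experiment the counts were 11.9, 17.7 and 22.3 in control cells and 22.7, 12.4 and 20.01 in KO cells. These groups also overlapped, and the log2 fold change was 0.08 with an SE of 0.31 (adjusted p = 0.962).

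Whether the *Ets1*-KO effect on *Bcl2l11* differed between tissues was tested on the log2 ratios of the pairs. The ratios were 0.78, 1.15 and 1.22 in the parenchyma and -0.37, 0.14 and 1.65 in the spleen. The spleen ratios spread over the whole range of the parenchyma ratios and beyond it. The difference was 0.58 with an SE of 0.35 and a 95% confidence interval of -0.12 to 1.28 (adjusted p = 0.482). A difference between tissues was therefore not shown. None of the 6 members tested in both tissues was called (limma), beside 2.1% of all 6520 genes tested, and 1 of the 6, *Bad*, had an unadjusted p under 0.05.

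*Bcl2l11* also differed in its level between the tissues. Levels in control cells were set on a common scale as CPM, without a test, because the tables had been scaled separately and the experiments differ. The 3 parenchyma controls had 115, 94.4 and 100.2 CPM. The spleen controls of the *Ets1* experiment had 8.24, 10.8 and 3.34, and those of the *Grk2* experiment had 9.33, 13.7 and 16.7. All parenchyma controls lay above all 6 spleen controls, by 13.8 times the mean of the first spleen set and 7.79 times the mean of the second. With TMM scaling, an alternative chosen after seeing the data, these ratios were 15.0 and 8.27. Of the 7778 genes tested in at least 1 table, 10.7% lay above all spleen controls in this way, and 0.81% did so with a mean at least 5 times that of both spleen sets. Sampling site and isolation procedure changed together between the parenchyma and both spleen sets, and for the second set the experiment as well, so that these cannot be told apart, nor can fewer cells expressing a gene be told apart from less RNA per cell in bulk libraries. Across the 6 groups the order of *Bcl2l11* was *Ets1*-KO parenchyma, then control parenchyma, then the 4 spleen groups, which overlapped one another.

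**Figure D2:**
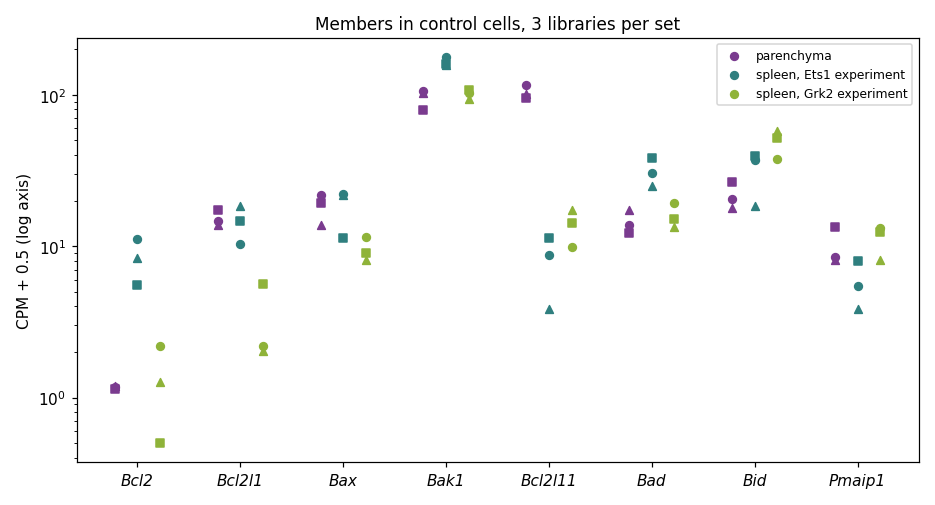
CPM, plus 0.5 and on a log axis, of the 8 members in control cells of the parenchyma (purple), the spleen of the *Ets1* experiment (teal) and the spleen of the *Grk2* experiment (green), with 3 libraries each. *Bcl2l11* is the member whose 3 parenchyma libraries, at 94.4 to 115 CPM, lie clear of both spleen sets.

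The promoter of *Bcl2l11* is shown because this is the member whose level moved, and the promoters of *Bad*, *Bcl2* and the most upstream start of *Bcl2l1* because KO and control libraries of these genes did not overlap in at least 1 comparison. KO libraries lay above all controls for 7.59% to 8.04% of the genes tested in a comparison. *Bad* and *Bcl2l1* were not called in any, and *Bcl2* was not tested. Each window holds the 250 bases before the RefSeq start in the GRCr8 build, given on the gene's strand. They lie at chr3:135819792-135820041 on the plus strand for *Bcl2l11*, chr1:213562864-213563113 on the plus strand for *Bad*, chr13:23366901-23367150 on the minus strand for *Bcl2* and chr3:161764776-161765025 on the minus strand for *Bcl2l1*. Capitals mark matches on either strand to GTAAACA, the letters preferred by forkhead (FOXO) factors, and to CCGGAAG, the core preferred by ETS factors.
Bcl2l11: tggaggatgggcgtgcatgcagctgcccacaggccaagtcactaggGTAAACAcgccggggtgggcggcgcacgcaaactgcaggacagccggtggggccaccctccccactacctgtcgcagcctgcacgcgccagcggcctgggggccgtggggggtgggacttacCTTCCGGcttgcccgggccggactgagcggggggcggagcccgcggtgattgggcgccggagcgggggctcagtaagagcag
Bad: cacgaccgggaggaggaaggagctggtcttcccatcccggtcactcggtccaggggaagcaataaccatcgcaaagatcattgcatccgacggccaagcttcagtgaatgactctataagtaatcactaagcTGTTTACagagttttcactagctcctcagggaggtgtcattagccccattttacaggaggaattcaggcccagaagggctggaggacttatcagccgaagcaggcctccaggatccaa
Bcl2: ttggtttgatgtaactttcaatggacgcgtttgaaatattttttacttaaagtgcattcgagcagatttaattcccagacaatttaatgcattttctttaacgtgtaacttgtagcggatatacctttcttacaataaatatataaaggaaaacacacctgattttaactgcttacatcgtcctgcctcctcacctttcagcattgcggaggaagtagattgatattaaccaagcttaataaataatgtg
Bcl2l1: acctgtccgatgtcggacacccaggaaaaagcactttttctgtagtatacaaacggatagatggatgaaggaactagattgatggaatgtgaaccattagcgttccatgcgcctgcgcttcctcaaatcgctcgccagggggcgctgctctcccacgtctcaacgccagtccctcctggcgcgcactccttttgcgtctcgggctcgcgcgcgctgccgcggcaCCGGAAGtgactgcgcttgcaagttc
The *Bcl2l11* window holds the FOXO letters at 198 to 204 bases before the start and the ETS letters, on the opposite strand, at 76 to 82 bases before it. The *Bad* window holds only the FOXO letters, at 112 to 118 bases before the start, and this *Bcl2l1* window only the ETS letters, at 20 to 26 bases before it. The *Bcl2* window holds neither. The motifs overlapped nowhere. Of 33469 rat promoter windows of this length, 3.21% hold the FOXO letters, 7.27% the ETS letters and 0.152% both. 8 of the 10 members matched a window, among them *Mcl1* but not *Bax* or *Bbc3*. There were 11 windows in all, of which 2 hold the FOXO letters and 4 the ETS letters. Several of the 11 belong to *Bcl2l1*, and some of these overlap one another. The windows with ETS letters that are not shown belong to *Mcl1* and another start of *Bcl2l1*. The windows of *Bid*, *Pmaip1*, *Bak1* and the other starts of *Bcl2l1* hold neither motif. A match of letters does not show that a factor binds there, and binding was not measured in these libraries.

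The survival genes were read at low levels. *Bcl2*, the founding member, was below the minimum mean of 10 normalized counts in all 3 tables and was not tested. In the parenchyma each control library held 1 read, and the *Ets1*-KO libraries held 3, 8 and 4 reads. All KO libraries lay above all controls, as for 7.87% of the genes that were tested there. The ratio of summed reads was 5.51, with a 95% counting interval of 1.56 to 29.7, which covers counting error only. In the spleen of the *Ets1* experiment, *Bcl2* stood at 14.2, 6.45 and 10.97 normalized counts in controls and 13.0, 10.5 and 4.37 in KO cells, and the groups overlapped. In the *Grk2* experiment it stood at 2.17, 0 and 1.01 in controls and 0.873, 4.14 and 6.37 in KO cells. These few reads overlapped as well. When the filter on low values was dropped, the adjusted p of *Bcl2* was 0.241 in the parenchyma, 0.888 in the spleen *Ets1* and 0.627 in the spleen *Grk2* comparison.

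The controls did not agree on where *Bcl2* is higher. The parenchyma controls had 0.670 ± 0.025 CPM, the spleen controls of the *Ets1* experiment 7.83 ± 2.86 and the spleen controls of the *Grk2* experiment 0.819 ± 0.850 (SD, n = 3 each). The first spleen set lay above the parenchyma, whereas the second overlapped it. The 2 spleen sets, both NT cells on day 3, did not overlap for 58.8% of the 7778 genes, so any tissue difference was read against both of them.

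*Bcl2l1* encodes BCL-XL, which activated T cells use for survival. In the parenchyma its normalized counts were 19.6, 24.4 and 18.7 in controls and 26.3, 24.3 and 34.003 in *Ets1*-KO cells. In the spleen they were 13.1, 18.3 and 25.1 in controls and 32.2, 27.3 and 33.7 in *Ets1*-KO cells. The groups overlapped in the parenchyma, whereas in the spleen all KO libraries lay above all controls, as they did for 8.04% of the 6979 genes tested there. The spleen log2 fold change was 0.73 with an SE of 0.29, and it did not pass the adjustment (adjusted p = 0.246). In the parenchyma it was 0.41 with an SE of 0.28 (adjusted p = 0.478), and the difference between tissues was -0.32 with a 95% confidence interval of -1.14 to 0.49 (adjusted p = 0.791). In the *Grk2* experiment the gene was below the minimum, with 2.17, 6.65 and 2.02 normalized counts in controls and 6.99, 7.25 and 7.28 in KO cells. All KO libraries lay above the controls, as for 7.59% of the genes tested there, from 10 and 23 reads in all. The ratio of summed reads was 2.02 with a counting interval of 0.92 to 4.74. The gene overlaps a non-coding locus on the opposite strand, LOC108353446, and whether reads were counted by strand is not given in the sources used here.

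The effector genes were not called in any comparison, and their groups overlapped. *Bak1*, which encodes the pore-forming protein BAK, was among the better covered members with 381 or more reads per group in the parenchyma. Its parenchyma counts were 147, 115 and 143 in controls and 123, 130 and 147 in *Ets1*-KO cells. The groups lay on top of each other, with a log2 fold change of -0.01 and a 95% confidence interval of -0.26 to 0.25 (adjusted p = 0.986). In the spleen the counts were 234, 205 and 221 against 220, 230 and 146 in *Ets1*-KO cells. The low KO value was replicate 3, the library that stood apart, and the log2 fold change of -0.17 (SE 0.14, adjusted p = 0.631) became 0.04 without that pair. In the *Grk2* experiment *Bak1* stood at 130, 139 and 124 in controls and 136, 113 and 92.8 in KO cells. The groups overlapped, and the log2 fold change was -0.22 with a 95% confidence interval of -0.46 to 0.03 (adjusted p = 0.548).

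*Bax*, the other effector gene, was read at 18.7 to 29.9 normalized counts in parenchyma controls and 25.3 to 37.4 in *Ets1*-KO cells. In the spleen it was read at 14.0 to 29.8 in controls and 20.5 to 28.7 in *Ets1*-KO cells. The groups overlapped in both tissues, with log2 fold changes of 0.26 (SE 0.26, adjusted p = 0.672) and 0.09 (SE 0.30, adjusted p = 0.931). In the *Grk2* experiment *Bax* was below the minimum, at 14.1, 11.1 and 10.1 in controls and 1.75, 8.28 and 13.6 in KO cells, and 2 of the 3 KO libraries lay below all controls while the third lay among them.

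*Bad* encodes a BH3-only protein that growth factor kinases keep inactive by phosphorylation. In the parenchyma its normalized counts were 18.7, 16.9 and 23.6 in controls and 29.3, 25.3 and 29.5 in *Ets1*-KO cells. In the spleen they were 39.4, 48.4 and 34.5 in controls and 29.4, 42.8 and 23.7 in *Ets1*-KO cells. In the parenchyma all KO libraries lay above the controls, as for 7.87% of all genes tested there, whereas in the spleen each KO library lay below its same-numbered control while the groups overlapped. Neither effect was called, with log2 fold changes of 0.49 (SE 0.28, adjusted p = 0.362) and -0.37 (SE 0.24, adjusted p = 0.519). The difference between the tissues was 0.86 with a 95% confidence interval of 0.14 to 1.59, and it did not pass the adjustment either (adjusted p = 0.243).

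*Bad* was also the member with the largest log2 fold change among those tested in the *Grk2* experiment. Its counts were 23.8, 18.8 and 17.2 in controls and 30.6, 37.3 and 30.0 in *Grk2*-KO cells. All KO libraries lay above all controls, as they did for 7.59% of the 6985 genes tested there. The log2 fold change was 0.69 with an SE of 0.26 and a 95% confidence interval of 0.18 to 1.20 (adjusted p = 0.229). None of the 5 members tested in this experiment and none of the 6 tested in the spleen *Ets1* experiment was called by limma, edgeR or DESeq2, beside 1.56% and 2.22% of all genes called by limma. *Bad* and *Bcl2l1* were the members with an unadjusted p under 0.05 in these experiments by limma and edgeR, and no member had one by DESeq2.

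*Bid* encodes a BH3-only protein that caspase-8 cleaves, which links death receptors to mitochondria. Its normalized counts in the parenchyma were 28.0, 37.6 and 24.6 in controls and 25.3, 35.4 and 34.003 in *Ets1*-KO cells. The log2 fold changes were 0.07 (SE 0.25) in the parenchyma, 0.02 (SE 0.24) in the spleen *Ets1* and -0.05 (SE 0.17) in the spleen *Grk2* experiment, with adjusted p of 0.930, 0.985 and 0.959. KO and control libraries overlapped in all 3 experiments. *Pmaip1*, which encodes NOXA, a p53 target that binds MCL1, was tested in 2 tables. Its counts were 8.09 to 18.8 over the parenchyma libraries and 9.10 to 18.3 over those of the *Grk2* experiment. The log2 fold changes there were 0.05 (SE 0.36, adjusted p = 0.973) and -0.13 (SE 0.34, adjusted p = 0.942), with overlapping groups, and the SE limits what could have been seen. In the spleen of the *Ets1* experiment the gene was below the minimum, at 6.56, 9.68 and 4.70 in controls and 3.42, 4.96 and 4.37 in KO cells.

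**Figure D3:**
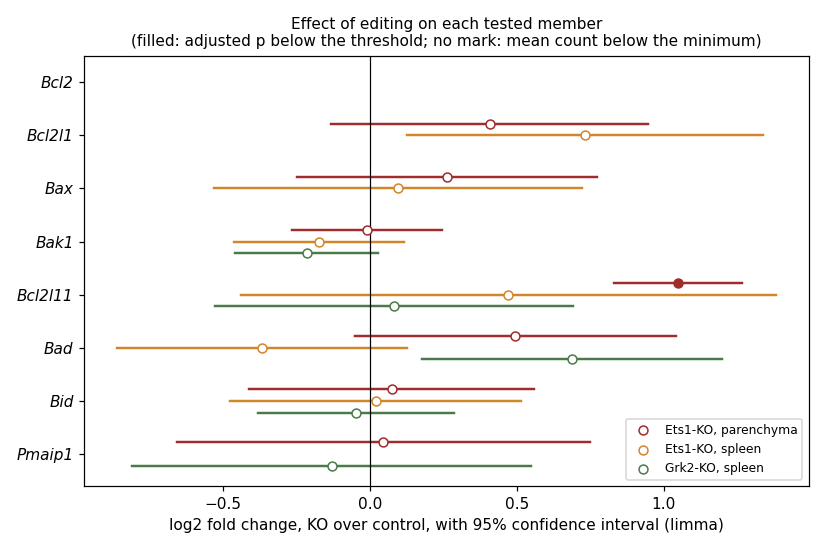
Log2 fold change of KO over control cells (horizontal axis, limma) with its 95% confidence interval for each tested member in 3 comparisons, where a filled point marks an adjusted p under 0.05 and a member below the minimum has no point. The *Bcl2l11* point of the parenchyma, at 1.05, is the filled one. The intervals of *Bcl2l1* in the spleen *Ets1* comparison and of *Bad* in the spleen *Grk2* comparison lie above 0 but were not called after adjustment over all genes.

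In control cells, members other than *Bcl2l11* showed no level in the parenchyma that was apart from both spleen sets. Of the 7 members that passed the minimum in at least 1 table, 1 lay above and none below all 6 spleen controls, beside 10.7% above and 14.5% below among all 7778 genes. *Bak1* had 95.2 ± 14.2 CPM in the parenchyma, 164 ± 10.6 in the first and 101 ± 6.75 in the second spleen set. The parenchyma overlapped the second spleen set and lay below the first. *Bad* followed the same order at 13.9 ± 2.57, 30.5 ± 6.53 and 15.4 ± 2.95. *Bcl2l1* stood at 14.7 ± 1.88 in the parenchyma and 14.0 ± 3.97 in the first spleen set, which overlapped, and at 2.78 ± 2.04 in the second, which was lower than both. *Bid* was lower in the parenchyma (21.1 ± 4.33) than in the second spleen set (48.6 ± 10.2) and overlapped the first (31.1 ± 11.6). *Bax* (17.8 ± 4.17, 17.8 ± 6.05 and 9.07 ± 1.76) and *Pmaip1* (9.54 ± 2.95, 5.26 ± 2.09 and 10.8 ± 2.76) had parenchyma levels that overlapped at least 1 spleen set.

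The wider pathway was read from 87 further genes, of which 79 had a row and 55 were tested in the parenchyma. There *Ets1*-KO cells held 5 of them at higher and 2 at lower levels, beside 2.27% and 2.96% of all genes tested. 4 of the 5 belonged to the 8 receptor chains of survival cytokines, of which 6 were tested. The median log2 fold change of these 6 chains was 0.40, beside -0.03 over all genes tested. *Il2ra*, the alpha chain of the interleukin-2 receptor, stood at 668, 638 and 667 normalized counts in controls and 1044, 1031 and 958 in KO cells. Its groups were far apart, with a log2 fold change of 0.62 (SE 0.08, adjusted p = 1.89e-12). *Il21r* (0.59, SE 0.11, adjusted p = 1.81e-05, but 0.0534 without replicate 1), *Il4r* (0.40, SE 0.09, adjusted p = 3.98e-04) and *Il2rb* (0.39, SE 0.08, adjusted p = 3.58e-05) rose as well, while *Il2rg*, the common gamma chain, had a log2 fold change of 0.06 (SE 0.08, adjusted p = 0.754). The calls on these 4 chains were lost when the trend was ignored (adjusted p of 0.249 to 0.362). *Il7r* was listed at 0 in all 18 libraries.

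The fifth gene that rose was *Bcl2a1*, which encodes the survival protein A1. It stood at 67.3, 45.1 and 61.9 normalized counts in parenchyma controls and 100.1, 85.9 and 88.4 in *Ets1*-KO cells. All KO libraries lay above the controls (log2 fold change 0.66, SE 0.17, adjusted p = 0.00306), so that in these cells *Bcl2l11*, whose product promotes death, and *Bcl2a1*, whose product opposes it, were both higher. The call on *Bcl2a1* was lost without replicate 2 (adjusted p = 0.162) and with DESeq2 (0.320), and also when the trend was ignored (0.275). The genes that were lower were *Dffa*, an inhibitor and chaperone of the nuclease that cuts DNA during apoptosis (-0.77, SE 0.24, adjusted p = 0.0326), and *Nfkb1*, a subunit of NF-kappa-B (-0.45, SE 0.15, adjusted p = 0.0442). Both calls were lost without each replicate in turn (*Dffa*: adjusted p of 0.0753 to 0.345, *Nfkb1*: 0.146 to 0.238), and in all *Dffa* lost its call in 9 of 13 alternatives and *Nfkb1* in 11 of 14, with adjusted p of up to 0.820 and 0.837. None of the tested genes of the death receptor route (7), of p53 and its targets (9) or of the stabilisers and ligases of members (7) was called in the parenchyma. *Foxo1*, a forkhead factor known to act on *Bcl2l11*, stood at 158 to 231 in controls and 195 to 213 in KO cells, which overlapped (0.13, SE 0.11, adjusted p = 0.621).

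**Figure D4:**
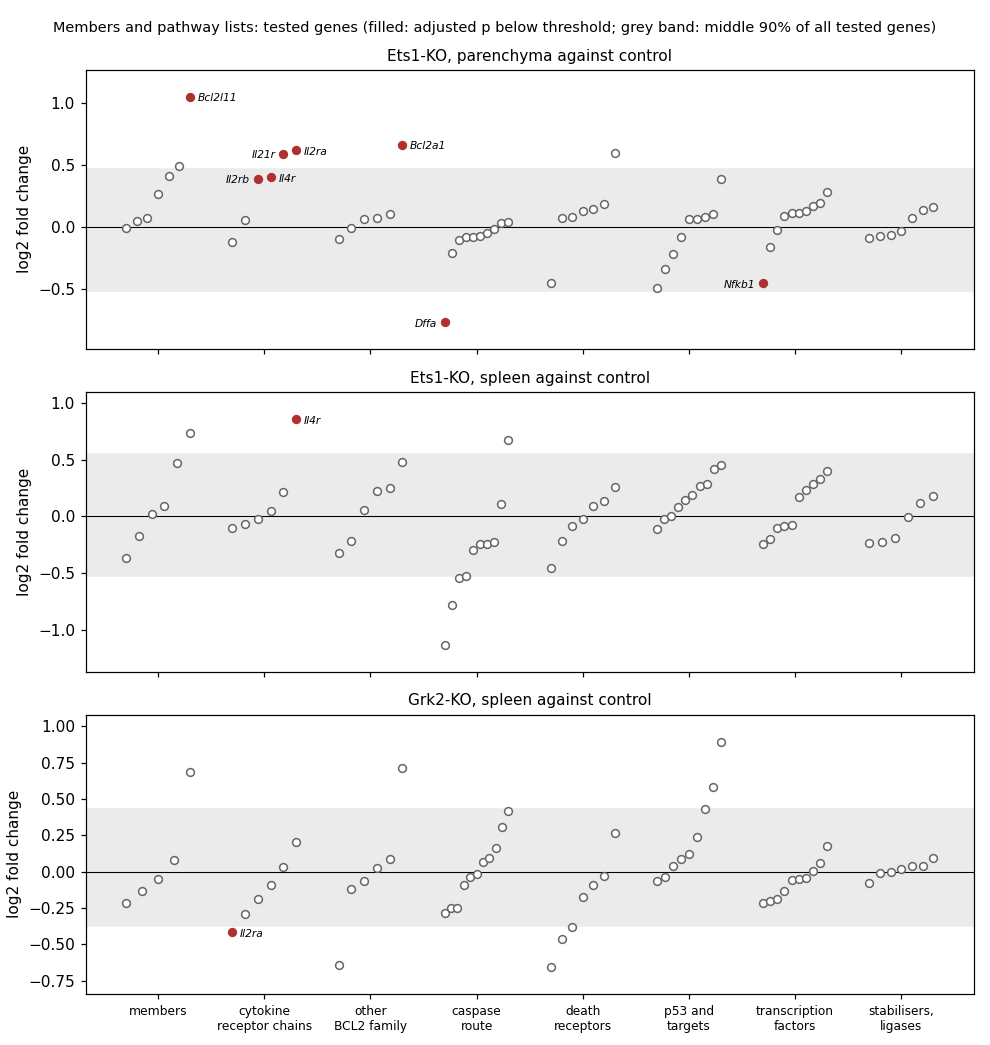
Log2 fold change (vertical axis) of the tested members and of the tested genes of 7 pathway lists, ordered by value within each list, in the 3 comparisons, with filled points for an adjusted p under 0.05 and a grey band over the middle 90% of all tested genes. In the parenchyma the filled points are *Bcl2l11*, 4 receptor chains, *Bcl2a1*, *Dffa* and *Nfkb1*, in the spleen *Ets1* comparison *Il4r*, and in the spleen *Grk2* comparison *Il2ra*.

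In the spleen 1 of 55 tested pathway genes was higher in *Ets1*-KO cells and none was lower, beside 2.22% of all genes called in either direction. It was *Il4r*, with 110, 133 and 132 normalized counts in controls and 244, 238 and 200.4 in KO cells, and the groups did not overlap. Its log2 fold change was 0.86 (SE 0.14, adjusted p = 0.00188), and the call was lost without replicate 1 (adjusted p = 0.397) and when the trend was ignored (0.322). *Il2ra* stood at 173, 158 and 172 in spleen controls and 166, 148 and 156 in *Ets1*-KO cells, with a log2 fold change of -0.10 (SE 0.13, adjusted p = 0.793). The tissue difference of its effect was 0.72 with an SE of 0.14 (adjusted p = 0.00347), which was the single call among 54 pathway genes tested for that difference. In the *Grk2* experiment *Il2ra* was the single call among 56 pathway genes, beside 1.56% of all genes, with 214, 314 and 267 normalized counts in controls and 152, 220 and 225 in KO cells. The groups overlapped, but each KO library lay below its same-numbered control, and the log2 fold change was -0.42 (SE 0.10, adjusted p = 0.00512). This call was lost in 5 of 14 alternatives, namely without the replicate block (adjusted p = 0.327), without replicate 1 (0.151) or replicate 2 (0.480), with DESeq2 (0.396) and when the trend was ignored (0.535).

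The libraries held traces of other cells. The 10 myeloid markers summed to 15.5 to 29.2 CPM in parenchyma controls and 22.7 to 47.5 in *Ets1*-KO cells, and to at most 6.28 in the spleen, with *Adgre1* at 0 in every group. The 5 oligodendrocyte and myelin markers summed to 50.1 to 60.8 in parenchyma controls, 31.3 to 56.7 in parenchyma *Ets1*-KO cells and 17.3 to 35.6 in the spleen. The 2 CD8 markers summed to 0 to 2.67 in parenchyma controls and 4.01 to 7.20 in parenchyma *Ets1*-KO cells, which did not overlap, with *Cd8b* at 0 in both. The erythroid markers summed to 23.1 to 48.3 in the spleen libraries of the *Ets1* experiment and to at most 2.39 in all others, so that they separated the 2 spleen sets. *Bcl2l11* stood at 94.4 to 115 CPM in parenchyma controls and 197 to 234 in *Ets1*-KO cells. Marker sums do not give how much *Bcl2l11* such cells hold. The part of such cells in the *Bcl2l11* and *Bcl2a1* levels was not tested.

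Finally, the genes whose levels were most like those of *Bcl2l11* over the 18 libraries, centred within each table, were *Ccr6*, *Ccnd2* and *Cops8*, with Pearson r of 0.79, 0.76 and 0.75 among 6207 genes. These values are a description, since all genes share the libraries and the *Ets1*-KO contrast. *Ccr6*, a chemokine receptor, stood at 147, 140 and 167 normalized counts in parenchyma controls and 374, 398 and 431 in *Ets1*-KO cells. Its log2 fold change was 1.40 (SE 0.11, adjusted p = 1.78e-36) there, 1.25 (SE 0.32, adjusted p = 0.0343) in the spleen *Ets1* experiment and -0.36 (SE 0.16, adjusted p = 0.383) in the *Grk2* experiment. The parenchyma call was lost in 1 of 14 alternatives, when the trend was ignored (adjusted p = 0.0986). The spleen *Ets1* call was lost in 5 of 12 alternatives, which include leaving out each replicate in turn (adjusted p of 0.0997 to 0.195) and dropping the replicate block (0.0805). *Ccnd2*, a D-type cyclin, had a log2 fold change of 0.66 (SE 0.14, adjusted p = 1.85e-04) in the parenchyma and was not called in the spleen. Its call was lost in 3 of 14 alternatives, namely without replicate 2 (adjusted p = 0.0913), with DESeq2 (0.106) and when the trend was ignored (0.278). *Cops8*, a subunit of the COP9 signalosome, was not called in any comparison.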

How the data were processed

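RNA of sorted rat CD4+ T-MBP cells had been read by 3′ mRNA-seq. According to the submitters' processing notes and the study's methods, the authors aligned reads to Rnor_6.0 with STAR 2.7.2b, counted them per gene with HTSeq 1.0.0 and scaled them with DESeq2 2.11.40.7. The deposited signal values are reads per gene divided by 1 size factor per library, scaled within each of 3 tables. All positive values were whole multiples of 1 step per library (tolerance 0.01), which gave back whole reads. In the parenchyma *Ets1* table, replicates 1 and 2 of the KO cells carry the same size factor. Tables of the authors' own comparisons hold fold changes and p values and were not used, nor were 8 columns of human values.

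Within a table, a gene entered the test if its normalized counts averaged at least 10. The log2(normalized count + 1) values were fitted with limma 3.58.1 (lmFit, eBayes with trend, R 4.3.3), KO against control within each table, with replicate number as a block, two-sided, and with Benjamini-Hochberg adjustment over all genes tested. A fold change is therefore on the log2(value + 1) scale, which understates changes of low genes. Genes with an adjusted p under 0.05 were called. With few residual degrees of freedom per gene, the spread was taken mostly from the trend over genes. The tissue difference was tested with limma on the log2 ratios of KO to control of each pair, with the mean level over both tissues as the trend covariate. Control levels were CPM of the recovered reads, described without a test. The fits were also run on simulated counts, with the same dispersion of 0.02 for all genes, no replicate effect and no outlying library. That simulation does not bear on the choice of block or trend. Alternatives included edgeR 4.0.16 and DESeq2 1.42.0 on the recovered reads.

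That same-numbered libraries come from the same host was assumed in view of the co-transfer. It is not given in the labels. Deviations from the group means of same-numbered control and KO libraries correlated at -0.003 to 0.159 in the parenchyma, 0.077 to 0.175 in the spleen *Ets1* and 0.006 to 0.145 in the spleen *Grk2* table, against -0.162 to 0.050 for different numbers over the 3 tables. Within the parenchyma and the spleen *Grk2* tables the ranges of same and different numbers overlapped, so these correlations do not settle the pairing.

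The genes named were all members, the edited genes, called genes of the pathway lists (at most 8 per list) and the 3 genes most correlated with a called member. *Foxo1*, *Il2rg*, *Il7r* and the markers *Adgre1* and *Cd8b* are outside this rule and were named after their values were seen. The members and lists were chosen with earlier results of these data known. *Mcl1* and *Bbc3* were not analysed here. Gene positions follow the files, and promoter windows are RefSeq sequences on GRCr8.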

Additional observations from a re-analysis of the deposited data

Results flagged for a closer look

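The *Ets1*-KO effect on *Il2ra* was more positive in parenchyma than in spleen cells, with a log2 difference of 0.72 (SE 0.14, adjusted p = 0.00347, limma on the pair ratios), with all 3 pairs higher in the parenchyma and all 3 lower in the spleen. The call was lost without replicate 1 (adjusted p = 0.1005) and with a variance estimate that ignores the trend (0.225), and it held in the 10 other alternatives.

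*Bad* was higher in KO cells in all 3 pairs of the parenchyma and lower in all 3 pairs of the spleen, a difference of 0.86 on the log2 scale. The test of this difference did not pass the adjustment (adjusted p = 0.243).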

How the results depend on the processing

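The call on *Bcl2l11* in the parenchyma, the single call among the members, was lost in 1 of 14 alternatives, in which eBayes was run without the trend and the number of members called went from 1 to 0. No member was called in the other 3 tests under any alternative run. Without the replicate block the member calls were 1 in the parenchyma and 0 in both spleen comparisons and for the tissue difference, as with it, while the genes called in all went from 366 to 200 in the parenchyma, 155 to 71 in the spleen *Ets1*, 109 to 19 in the spleen *Grk2* and 137 to 47 in the tissue comparison. Apart from the calls named in the report, the block changed no call on a member. eBayes without the trend called 3, 0, 0 and 2 genes in these 4 comparisons, and DESeq2 called 86, 54 and 12 in the first 3. Leaving out 1 replicate number called 165 to 278, 3 to 241, 9 to 48 and 26 to 96 genes. Without the filter on low values 212 genes were called in the parenchyma and 242 in the spleen *Ets1* comparison, edgeR called 238 in the latter, and a minimum mean of 50 left 60 in the *Grk2* comparison. With TMM scaling the percentage of calls with higher levels in KO cells went from 45.8% to 58.0% in the spleen *Ets1* and from 59.6% to 52.1% in the *Grk2* comparison, and with quantile normalization it was 45.3% in the latter. The causes were not tested.

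Of 293 values of members under alternatives, 272 kept their direction and their side of the threshold, 1 lost its call and 20 changed sign, none of them called. *Bak1* in the parenchyma went from -0.01 to above 0 with upper quartile scaling (0.0082), quantile normalization (0.0099), edgeR (0.011), DESeq2 (0.015) and TMM scaling (0.017). *Bid* in the spleen *Ets1* comparison was -0.022 with edgeR. Leaving out 1 replicate number gave -0.11 to 0.11 for *Bak1*, -0.11 to 0.18 for *Bid* and -0.24 to 0.28 for *Pmaip1* in the parenchyma. In the spleen *Ets1* comparison it gave -0.25 to 0.37 for *Bax*, -0.34 to 0.036 for *Bak1*, -0.12 to 0.89 for *Bcl2l11*, -0.19 to 0.29 for *Bid*, -0.19 to 0.39 for *Cops8* and -0.14 to 0.0086 for *Ets1*. In the *Grk2* comparison it gave -0.31 to 0.36 for *Bcl2l11*, -0.23 to 0.13 for *Bid*, -0.28 to 0.012 for *Pmaip1* and -0.062 to 0.076 for *Cops8*. For the tissue difference it gave -0.063 to 0.42 for *Bax*, -0.068 to 0.33 for *Bak1* and -0.14 to 0.23 for *Bid*. *Cops8* in the *Grk2* comparison, at 0.0029, was -0.016 with upper quartile scaling and with quantile normalization, -0.0096 with TMM scaling, -0.0063 with edgeR and -0.015 with DESeq2. Leaving out single control libraries, chosen after seeing the data, gave 10.8 to 17.8 and 6.78 to 8.96 for the ratio of *Bcl2l11* in parenchyma to each spleen set. Members under about 30 normalized counts had an SE of 0.24 or more, which limits the changes that could be called.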
